A study of Homo sapiens with 8 samples.

Results

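The insulin-like growth factor binding proteins were examined here through the 9 array probes that the platform annotation assigns to IGFBP1, IGFBP2, IGFBP3, IGFBP4, IGFBP5, IGFBP6 and IGFBP7, out of 47323 probes and 20046 named genes in all. IGFBP3 and IGFBP5 have 2 probes each and the other genes have 1. RNA came from H1, an established line of human embryonic stem cells kept in mTeSR medium on a Matrigel coat. The time from transduction to harvest is not given here. The cells had received, with polybrene, a lentivirus meant to overexpress NANOG (OE-NANOG), OCT4 (OE-OCT4, the product of POU5F1) or SOX2 (OE-SOX2), or the EF1a-control virus, and each of the 4 groups has 2 arrays. All samples therefore received a virus, and no sample without virus is analysed here. The share of cells that was transduced is not given here. Nothing in the labels gives the replicates separate cultures. A p-value here thus reflects the spread among the samples alone, and that spread may be technical.

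The binding proteins are secreted carriers that hold the growth factors IGF1 and IGF2 in the space around cells. By doing so they can keep the ligands from the receptor IGF1R, prolong their life or deliver them when a protease cuts the carrier. IGFBP1 to IGFBP6 bind the factors with high affinity, while IGFBP7 binds them weakly and is found in blood vessel walls and matrix. IGF signalling and insulin support the self-renewal of human embryonic stem cells in culture. That state is held by a core of transcription factors that includes OCT4, SOX2 and NANOG.

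Values are the authors' processed intensities, in arbitrary units of brightness. A probe was tested when its intensity exceeded 123.7 on at least 2 of the 8 arrays, which 21828 probes did, 8 of the 9 IGFBP probes among them. Changes are differences in log2 intensity after background correction with an offset of 50, tested with limma on all 8 arrays and called at an adjusted p under 0.05. Brightness is not compared between probes. With 2 arrays per group, the arrays of 2 groups did not overlap for 38.2% to 56.3% of all tested probes, depending on the comparison. Lack of overlap is therefore given below as a description only. Replicate arrays correlated across probes at 0.970 in the SOX2 group and at 0.990 to 0.996 in the other groups, and 572 probes differed by more than 1 log2 unit between the SOX2 arrays, against 1 to 60 within the other groups. The pluripotency genes POU5F1, NANOG, SOX2, LIN28A and DNMT3B were above the filter intensity on all 8 arrays. The labels could not be checked through the targeted genes. Of the 6 probes for these genes, 2 per gene, 0 were called higher in the group named after them than in control. The log2 changes were -0.22 and -0.29 for NANOG, -0.01 and -0.95 for POU5F1, and -0.77 and -1.15 for SOX2, the last with an adjusted p of 0.00840. Where the probes lie in these genes is not given here, so groups are named as labelled. In bulk RNA, fewer cells expressing a gene and less of its RNA per cell cannot be told apart.

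IGFBP3 and IGFBP5 were the binding protein genes with a probe past the threshold. With 2 arrays per group, a miss does not show that the other genes were unchanged. In NANOG against control the 95% intervals of IGFBP4, IGFBP6 and IGFBP7 excluded 0, and that of IGFBP2 did not. IGFBP3 was higher in cells labelled NANOG and in cells labelled SOX2 than in control. IGFBP5 was higher in cells labelled SOX2 by both probes, 4.49-fold and 3.47-fold, and about 2-fold lower in cells labelled NANOG by the 1 probe that passed. In cells labelled OCT4, no IGFBP probe passed against control. Asked whether levels differed among the 4 groups at all, limma's moderated F test called 4 of the 8 tested IGFBP probes, both of IGFBP3 and both of IGFBP5, against 11.4% of all tested probes.

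**Figure D1:**
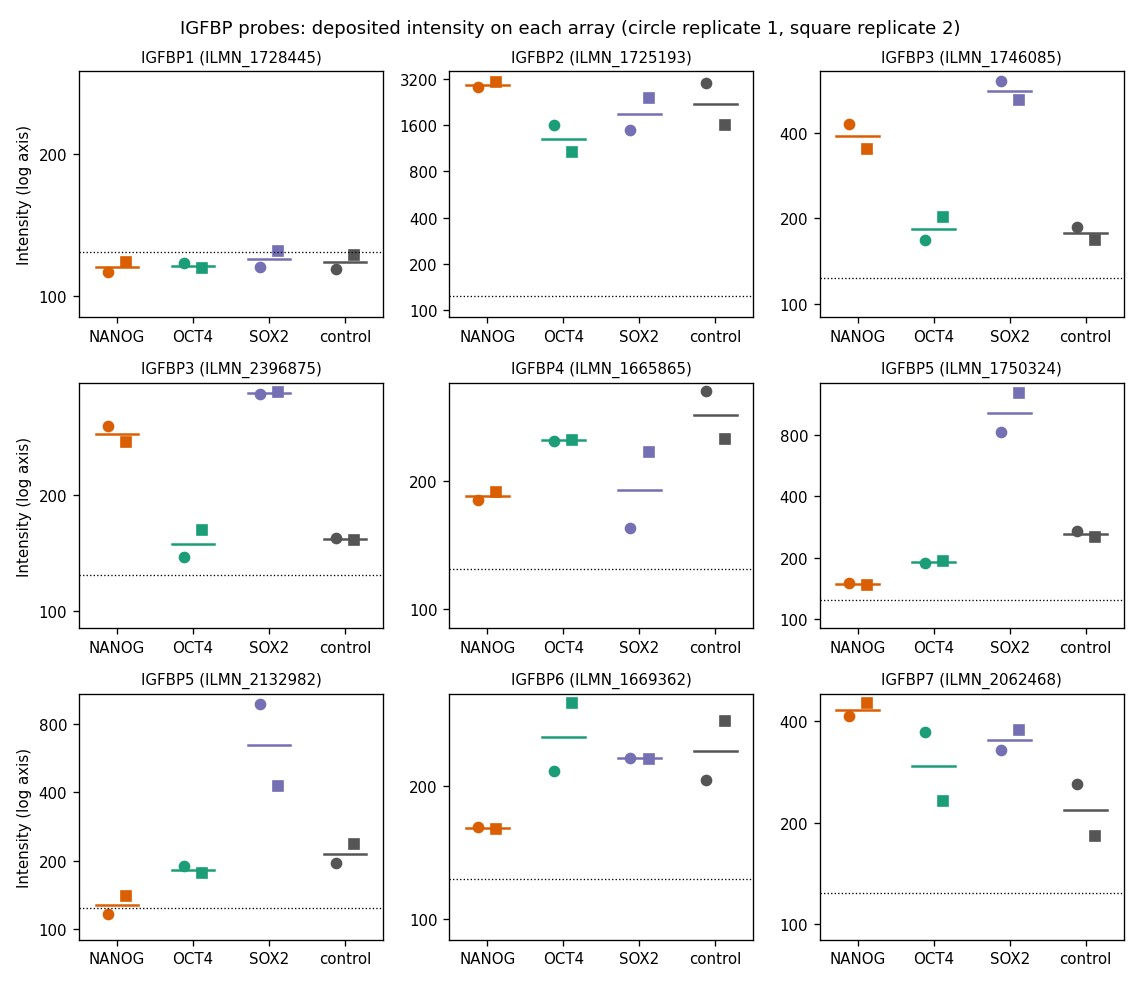
Deposited intensity (log axis) of each of the 9 IGFBP probes on the NANOG, OCT4, SOX2 and control arrays. Circles are replicate 1, squares replicate 2, horizontal lines the geometric mean of each group, and the dotted line the filter intensity of 123.7. Both SOX2 arrays lie above all other arrays for both probes of IGFBP3 and of IGFBP5, and IGFBP1 stays at the dotted line.

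Because IGFBP3 and IGFBP5 carry the results, the 250 bases before their annotated starts are shown. The sequences are RefSeq's, on build GRCh38.p14, and the table used held promoters for 5 of the 7 genes, IGFBP2 to IGFBP6. IGFBP3 lies on the minus strand at chr7:45921273-45921522 and IGFBP5 on the minus strand at chr2:216695550-216695799. Capitals mark matches, on either strand, to the TATA box spellings TATAAA or TATATA or TATTTA, the octamer ATGCAAAT read by OCT4, the SOX spellings ACAATG or ACAAAG, the AP-2 spelling GCCNNNGGC and the GC box GGGCGG.
IGFBP3: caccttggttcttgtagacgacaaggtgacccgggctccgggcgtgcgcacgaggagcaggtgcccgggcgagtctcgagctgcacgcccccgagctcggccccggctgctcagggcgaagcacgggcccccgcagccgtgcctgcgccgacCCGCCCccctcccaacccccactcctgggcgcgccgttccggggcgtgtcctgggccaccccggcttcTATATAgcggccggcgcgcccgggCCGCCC
IGFBP5: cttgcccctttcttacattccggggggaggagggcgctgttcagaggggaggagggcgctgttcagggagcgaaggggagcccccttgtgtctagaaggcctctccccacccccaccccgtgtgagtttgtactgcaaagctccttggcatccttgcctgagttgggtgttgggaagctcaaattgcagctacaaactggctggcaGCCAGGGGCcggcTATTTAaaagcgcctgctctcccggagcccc
Both windows hold a TATA box spelling close to the start. TATATA begins 30 bases before the IGFBP3 start and occurs in 3.73% of the 35116 promoters of the table, and TATTTA begins 31 bases before the IGFBP5 start and occurs in 11.7% of them. The IGFBP3 window also holds 2 GC boxes, a spelling found in 42.6% of promoters, and the IGFBP5 window holds 1 AP-2 spelling, found in 19.8%. None of these matches overlaps another. The octamer (1.63% of promoters), ACAATG (9.29%) and ACAAAG (13.7%) were not in either window, which says nothing of binding elsewhere. The base composition differed, with 76.0% G and C in the IGFBP3 window and 61.2% in the IGFBP5 window.

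IGFBP3 is the main IGF carrier of blood, and also acts on cells without binding IGF. Its probe ILMN_1746085 read 429 and 351 on the NANOG arrays, 168 and 202 on the OCT4 arrays, 606 and 521 on the SOX2 arrays, and 187 and 168 on the control arrays. The NANOG and SOX2 arrays lay above every OCT4 and control array, and those of OCT4 and control overlapped. The second probe, ILMN_2396875, which the annotation pairs with another IGFBP3 transcript, read 301 and 275 with NANOG, 138 and 162 with OCT4, 367 and 371 with SOX2, and 155 and 152 in control. It put the groups in the same order of NANOG and SOX2 over OCT4 and control, and the log2 intensities of the 2 probes correlated at 0.992 over the 8 arrays, a description, since both probes read the same RNA on each array.

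In cells labelled SOX2, IGFBP3 was 3.85-fold higher than in control by ILMN_1746085 (log2 change 1.95, SE 0.17, adjusted p = 0.000913) and 2.93-fold higher by ILMN_2396875 (log2 change 1.55, SE 0.13, adjusted p = 0.000851). In cells labelled NANOG it was 2.57-fold higher than in control by ILMN_1746085 (log2 change 1.36, SE 0.17, adjusted p = 0.00681) and 2.21-fold higher by ILMN_2396875 (log2 change 1.14, SE 0.13, adjusted p = 0.00516). Both factor groups thus passed on both probes. In cells labelled OCT4 the log2 changes against control were 0.07 (95% interval -0.32 to 0.46) and -0.06 (-0.36 to 0.25), with adjusted p = 1.00 for each. Between factors, NANOG lay above OCT4 (log2 change 1.29, adjusted p = 0.00479, and 1.20, adjusted p = 0.00221) and OCT4 lay below SOX2 (log2 change -1.88, adjusted p = 0.00111, and -1.61, adjusted p = 0.000709). NANOG against SOX2 missed the threshold, at -0.59 (95% interval -0.98 to -0.20, adjusted p = 0.0561) and -0.41 (-0.72 to -0.11, adjusted p = 0.0819). Its arrays did not overlap on either probe, as for 53.8% of all tested probes in that comparison. The order was therefore SOX2, NANOG, and then OCT4 with control, where neither SOX2 and NANOG nor OCT4 and control differed past the threshold.

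The SOX2 calls of IGFBP3 held on both probes with any 1 array left out. The NANOG call of ILMN_1746085 ended without NANOG replicate 1 (adjusted p = 0.117) or control replicate 2 (0.0851), and that of ILMN_2396875 without NANOG replicate 1 (0.115), NANOG replicate 2 (0.0522) or control replicate 2 (0.0641). The NANOG against OCT4 calls of both probes ended without NANOG replicate 1. NANOG against SOX2 was at a log2 change of -0.71 for ILMN_1746085 without SOX2 replicate 2.

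IGFBP5 binds IGF and the extracellular matrix. Its probe ILMN_1750324 read 149.8 and 147 on the NANOG arrays, 187 and 192 on the OCT4 arrays, 822 and 1284 on the SOX2 arrays, and 272 and 251 on the control arrays. The 4 groups did not overlap. The second probe, ILMN_2132982, read 117 and 140.1 with NANOG, 189 and 177 with OCT4, 974 and 424 with SOX2, and 195 and 236 in control. Its groups kept the same order without overlap, but NANOG replicate 1 lay under the filter intensity. The SOX2 replicates differed 1.56-fold on ILMN_1750324, where replicate 2 was brighter, and 2.30-fold on ILMN_2132982, where replicate 1 was brighter. Over the 8 arrays the 2 probes correlated at 0.889.

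**Figure D2:**
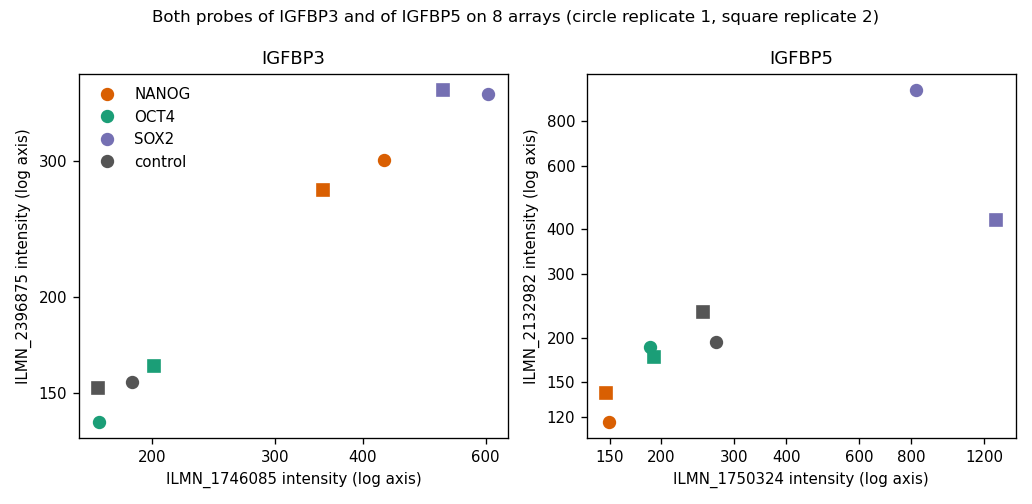
Intensity of the 2 probes of IGFBP3 (left) and of IGFBP5 (right) on the 8 arrays, on log axes, with 1 point per array, circles for replicate 1 and squares for replicate 2. The IGFBP3 points lie along 1 line, and the SOX2 points of IGFBP5 swap order between its probes, at 822 and 1284 on ILMN_1750324 against 974 and 424 on ILMN_2132982.

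In cells labelled SOX2, IGFBP5 was 4.49-fold higher than in control by ILMN_1750324 (log2 change 2.17, SE 0.19, adjusted p = 0.00101) and 3.47-fold higher by ILMN_2132982 (log2 change 1.79, SE 0.36, adjusted p = 0.0222). In cells labelled NANOG it fell by 1.04 on the log2 scale against control by ILMN_1750324 (SE 0.19, adjusted p = 0.0351). ILMN_2132982 was at -1.01 there (SE 0.36, adjusted p = 0.226), with 1 of the 2 NANOG arrays above the filter. The direct comparison of NANOG with SOX2 gave the largest differences of any IGFBP probe, at a log2 change of -3.21 (SE 0.19, adjusted p = 6.77e-05), or 9.25-fold higher with SOX2, and -2.80 (SE 0.36, adjusted p = 0.00185). OCT4 lay below SOX2 by both probes, with log2 changes of -2.74 (adjusted p = 0.000431) and -2.08 (adjusted p = 0.0168). Against control, OCT4 was at -0.57 (95% interval -1.02 to -0.13, adjusted p = 0.564) and -0.29 (-1.10 to 0.52, adjusted p = 1.00), and NANOG against OCT4 was at -0.47 (adjusted p = 0.246) and -0.72 (adjusted p = 0.343). Among NANOG, OCT4 and control, then, only NANOG against control passed, by ILMN_1750324.

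On ILMN_1750324 the 3 differences between SOX2 and the other groups held with any 1 array left out. The NANOG call against control ended without any 1 of NANOG replicate 1 (adjusted p = 0.315), NANOG replicate 2 (0.265), control replicate 1 (0.132), control replicate 2 (0.205) or either OCT4 array (0.0744), with the replicate number as a block (0.0511) and with no background correction (0.0781). On ILMN_2132982, SOX2 against control ended without control replicate 1 (0.159), control replicate 2 (0.0702) or either NANOG array (0.0568), and with the 2 groups alone in the fit (0.145). Its log2 change was 1.15 without SOX2 replicate 1 and 2.44 without SOX2 replicate 2. OCT4 against SOX2 ended on this probe without OCT4 replicate 1 (0.104), OCT4 replicate 2 (0.119) or either NANOG array (0.0505), and with the 2 groups alone (0.115). It was at -1.44 without SOX2 replicate 1 and at -2.73 without SOX2 replicate 2, and NANOG against SOX2 was at -2.16 without SOX2 replicate 1. Without either SOX2 array, the log2 change stayed at -0.57 in OCT4 against control by ILMN_1750324 and at -1.01 in NANOG against control by ILMN_2132982. NANOG against OCT4 stayed at -0.47 and -0.72 by the 2 probes.

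In the RefSeq table IGFBP5 and IGFBP2 are neighbours on chromosome 2, and IGFBP3 and IGFBP1 are neighbours on chromosome 7. Neither neighbour gives a called change: IGFBP2 was at -0.22 in SOX2 against control (adjusted p = 0.761), and IGFBP1 was above the filter on 1 of the 8 arrays and was not tested. IGFBP-AS1, a long noncoding RNA gene whose span overlaps that of IGFBP5, has a probe of its own, ILMN_1890788, which read between 119 and 137 on the 8 arrays and so lay near the filter value. Its log2 change in SOX2 against control was -0.14 (SE 0.11, adjusted p = 0.483).

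**Figure D3:**
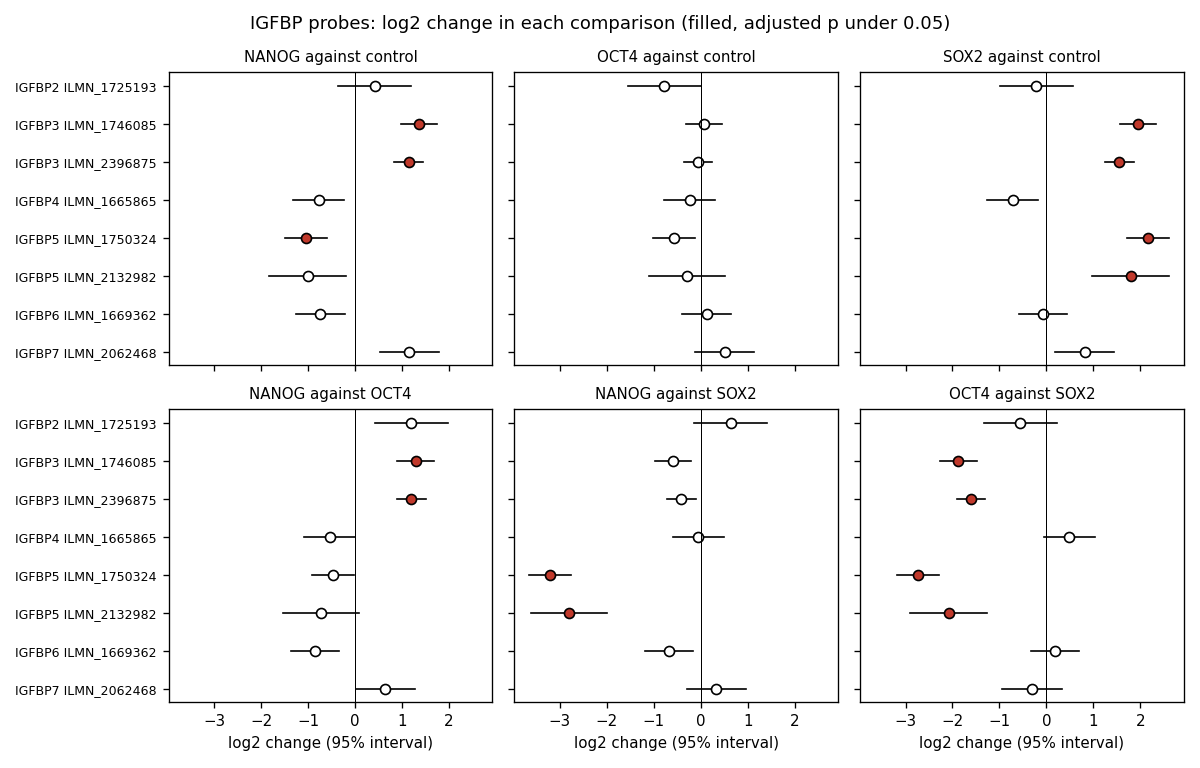
The log2 change (points) of the 8 tested IGFBP probes in the 6 comparisons, each named with the group on top of the ratio first, with 95% intervals as bars. Filled points have an adjusted p under 0.05, all of them probes of IGFBP3 or IGFBP5.

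IGFBP2, abundant in embryonic tissue and in the brain's fluid, was read well above the filter on all arrays but differed widely between replicates. ILMN_1725193 read 2830.4 and 3059 with NANOG, 1605 and 1071 with OCT4, 1497 and 2426 with SOX2, and 3036 and 1605 in control. The control arrays lay 1.89-fold apart and spanned most of the range, and the NANOG arrays, 1.08-fold apart, lay above both OCT4 arrays. The log2 changes against control were 0.42 with NANOG (95% interval -0.36 to 1.20, adjusted p = 0.670), -0.77 with OCT4 (-1.55 to 0.01, adjusted p = 0.772) and -0.22 with SOX2 (-0.99 to 0.56, adjusted p = 0.761). NANOG against OCT4 was at 1.19 (95% interval 0.42 to 1.97, adjusted p = 0.0934). Leaving out either SOX2 array left that log2 change at 1.19.

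IGFBP7, the weak IGF binder of vessel walls, had values above control in each factor group without passing. ILMN_2062468 read 414 and 452 with NANOG, 372 and 232 with OCT4, 328 and 377 with SOX2, and 259.8 and 183 in control. The NANOG and SOX2 arrays lay above both control arrays, whereas OCT4 replicate 2 lay between them. The log2 changes against control were 1.16 with NANOG (95% interval 0.53 to 1.79, adjusted p = 0.0757), 0.51 with OCT4 (-0.12 to 1.14, adjusted p = 0.877) and 0.82 with SOX2 (0.19 to 1.45, adjusted p = 0.115). Without either SOX2 array, NANOG against control stayed at 1.16, and without SOX2 replicate 1, SOX2 against control was at 0.94.

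IGFBP4, which mainly holds IGF back from its receptor and is cut by the protease PAPPA, had its lowest values with NANOG and SOX2. ILMN_1665865 read 180.2 and 188 with NANOG, 248 and 249 with OCT4, 155 and 234 with SOX2, and 324 and 250.2 in control. The NANOG, SOX2 and OCT4 arrays all lay under both control arrays, those of OCT4 only just, and the SOX2 arrays were 1.51-fold apart. The log2 changes against control were -0.77 with NANOG (95% interval -1.31 to -0.22, adjusted p = 0.167), -0.23 with OCT4 (-0.78 to 0.32, adjusted p = 0.994) and -0.72 with SOX2 (-1.26 to -0.17, adjusted p = 0.112). Without SOX2 replicate 2, the log2 change was -1.10 for SOX2 against control and 0.87 for OCT4 against SOX2. Without either SOX2 array, NANOG stayed at -0.77 against control and was at -0.54 against OCT4.

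IGFBP6, which prefers IGF2 over IGF1, read lowest with NANOG. ILMN_1669362 read 162 and 161 with NANOG, 216 and 309.7 with OCT4, 232 and 231 with SOX2, and 206.5 and 281 in control. The NANOG arrays lay under all 6 others, and the SOX2 arrays lay between the control arrays. NANOG was at a log2 change of -0.73 against control (95% interval -1.25 to -0.22, adjusted p = 0.161), -0.86 against OCT4 (-1.37 to -0.35, adjusted p = 0.0703) and -0.67 against SOX2 (-1.18 to -0.16, adjusted p = 0.0885). NANOG against OCT4 was at a log2 change of -1.17 without OCT4 replicate 1 and stayed at -0.86 without either SOX2 array. The other differences were small, with log2 changes of 0.12 for OCT4 against control, -0.06 for SOX2 against control and 0.19 for OCT4 against SOX2 (adjusted p = 1.00, 0.901 and 0.701).

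IGFBP1, a carrier made by liver and decidua, was not tested. ILMN_1728445 read 112 and 118 with NANOG, 117 and 115 with OCT4, 115 and 124 with SOX2, and 114 and 122 in control. The 124 of SOX2 replicate 2 was the 1 value above the filter intensity, so no difference was detectable at this brightness.

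Counted by comparison, NANOG against control called 3 of the 8 tested IGFBP probes, from 2 genes, where 2.32% of all tested probes were called. These were 2 higher probes (1.78% of all tested) and 1 lower (0.536%). The median log2 change of the 8 probes was -0.16, against -0.02 over all tested probes. SOX2 against control called 4 of 8, from 2 genes (8.01% of all tested probes). All 4 were higher (4.34%) and 0 lower (3.67%), and the median was 1.19, against -0.01 over all. That median counts IGFBP3 and IGFBP5 by 2 probes each. The other tested genes were at -0.22 (IGFBP2), -0.72 (IGFBP4), -0.06 (IGFBP6) and 0.82 (IGFBP7), so it does not show the family as a whole raised. In OCT4 against control limma called 0 of 8, where it called 0.174% of all tested probes, 0.151% higher and 0.0229% lower. Of these 8 probes 1, IGFBP5's ILMN_1750324, had an unadjusted p under 0.05, as did 1418 of all tested probes, and the median was -0.14, against 0.00 over all. These comparisons share the 2 control arrays.

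Between factors, NANOG against OCT4 called 2 of 8, both higher (5.12% of all tested probes, 3.22% higher and 1.91% lower). NANOG against SOX2 called 2 of 8, both lower (13.5% of all tested probes, 6.86% higher and 6.61% lower). OCT4 against SOX2 called 4 of 8, all lower (4.75% of all tested probes, 2.01% higher and 2.74% lower). The probes of 1 gene read the same RNA, so each of these counts comes from IGFBP3, IGFBP5 or both. The NANOG counts rest on few arrays. Against control the count was 0 without NANOG replicate 1 or without control replicate 2, 1 without NANOG replicate 2, and 6 without either SOX2 array, where 6.96% of all tested probes were called. NANOG against OCT4 called 0 without NANOG replicate 1 and 7 without either SOX2 array (11.7% of all tested probes). With array weights, NANOG called 7 of 8 against control (7.47% of all) and 7 of 8 against OCT4 (14.4%). With the 2 groups alone in the fit it also called 7 of 8 in each, where 7.67% and 15.7% of all tested probes were called. For SOX2 against control, the share of all tested probes called moved widely with 1 array left out. The range of the IGFBP count given below for that comparison is therefore a description only, and nothing is concluded from it.

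Markers of other cell types were read beside these results. Summed intensities are given as descriptions, over every gene of a list with a probe, those not past the filter included. The neuroectoderm list summed to 6255 to 7047 on the SOX2 arrays and 1718 to 1758 on the NANOG arrays, against 2188 to 2653 on the control arrays. Of its 7 genes 4 were past the filter, and PAX6, SOX1 and ZIC1 were not. By limma 1 was called higher with SOX2 (4.34% of all tested probes) and 1 lower with NANOG (0.536%). SOX21 read 215 and 221 with NANOG and 4775 and 4662 with SOX2, against 706 and 1016 in control, high with SOX2 and low with NANOG as IGFBP5 was. This 1 gene made up most of the SOX2 sums, so they do not show the list as a whole raised. With SOX2, OTX2 read 157 and 174, against 146 and 242 in control, and LHX2 read 124 and 139, against 133 and 130. NES read 878 and 1758 with SOX2, against 892 and 945 in control. The trophoblast and amnion list summed to 1957 to 2036 on the NANOG arrays and 1307 to 1327 on the SOX2 arrays, against 1263 to 1334 in control. Of its 8 genes 4 were measured, TFAP2A, TFAP2C, GABRP and ABCG2, and 3 of them were called higher with NANOG against control (1.78% of all tested probes). The exception, TFAP2A, went the other way, at 107.9 and 106.4 with NANOG, both under the filter, against 128.5 and 126.4 in control. CGA, GATA2, GATA3 and KRT7 were not past the filter. The part of these genes' cells in the IGFBP3 and IGFBP5 values was not tested. By limma, of 6 endothelial genes 3 were measured and 0 called in SOX2 or NANOG against control (8.01% and 2.32% of all tested probes). CDH5, PECAM1 and VWF were not past the filter. The fibroblast list summed to 2762 to 3564 with SOX2 and 4205 to 4363 with NANOG, against 3350 to 3770 in control, with LUM, PDGFRA and POSTN not past the filter. Most of the NANOG sums came from THY1, at 2692 and 2530 with NANOG against 1409 and 1374 in control. They do not show the list as a whole raised. COL1A1 went the other way, at 410 and 450 with NANOG against 713 and 1063 in control. In NANOG against control 0 of the list's genes were called higher and 0 lower (1.78% and 0.536% of all tested probes). With SOX2 against control 1 of the list's 7 measured genes was called higher and 1 lower (4.34% and 3.67% of all tested probes). For the endoderm and liver list 4 of 8 genes were measured, and FOXA2, GATA4, SOX17 and TTR were not past the filter. Its sums were 984 to 1019 with SOX2 and 984 to 990 with NANOG, against 907 to 977 in control. In NANOG against control 1 of its genes was called higher (1.78% of all tested probes). The pluripotency list summed to 21292 to 23308 with SOX2 and 26413 to 27209 with NANOG, against 26650 to 28000 in control, and 3 of its 10 measured genes were called lower with SOX2 (3.67% of all tested probes).

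The rest of the IGF axis was read through a list of 23 genes, with 35 probes, of which 16 probes from 13 genes were tested. The ligand genes IGF1, IGF2 and INS were not past the filter by any probe, and neither were the insulin receptor gene INSR and the carrier subunit gene IGFALS. The receptor gene IGF1R, at 133 to 161 over the 8 arrays, was little above the filter and had log2 changes against control of 0.00 with NANOG, -0.22 with OCT4 and 0.07 with SOX2 (adjusted p = 0.994, 0.838 and 0.745). In SOX2 against control 6 axis probes from 5 genes were called higher (4.34% of all tested probes) and 1 lower (3.67%), with a list median of 0.07 against -0.01 over all probes. In NANOG against control 1 was called higher (1.78% of all tested probes) and 0 lower (0.536%), with a list median of -0.02. In OCT4 against control limma called 0 (0.174%).

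Stanniocalcins, encoded by STC1 and STC2, are secreted inhibitors of PAPPA, the metalloproteinase that cuts IGFBP4 and IGFBP5. STC1 (ILMN_1758164) read 849.8 and 779 with NANOG, 317 and 319 with OCT4, 169.8 and 201 with SOX2, and 485 and 441 in control. The 4 groups did not overlap, with NANOG highest and SOX2 lowest. STC1 rose with NANOG (log2 change 0.88, SE 0.13, adjusted p = 0.0162) and fell by 1.56 on the log2 scale with SOX2 (SE 0.13, adjusted p = 0.000851) against control, and NANOG against SOX2 was at 2.44 (adjusted p = 5.32e-05). The NANOG call of STC1 against control ended without NANOG replicate 1 (adjusted p = 0.247), NANOG replicate 2 (0.126) or control replicate 2 (0.158). STC2 (ILMN_1691884) read 288 and 279 with NANOG, 387 and 385 with OCT4, 942 and 1062 with SOX2, and 280.1 and 401 in control. The SOX2 arrays stood above all others, and STC2 rose 3.28-fold with SOX2 against control (log2 change 1.71, SE 0.18, adjusted p = 0.00192). PAPPA itself (ILMN_1721770) read 115 and 117 with NANOG, 134 and 142 with OCT4, 222 and 209.5 with SOX2, and 124.5 and 149 in control. Its SOX2 arrays were the highest, with a log2 change of 0.89 against control (SE 0.14, adjusted p = 0.00972), a call that ended without control replicate 1 (0.0639) and with the 2 groups alone (0.106). PAPPA was lower with NANOG than with SOX2 (adjusted p = 0.00114), and since both NANOG arrays were under the filter no fold is given.

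**Figure D4:**
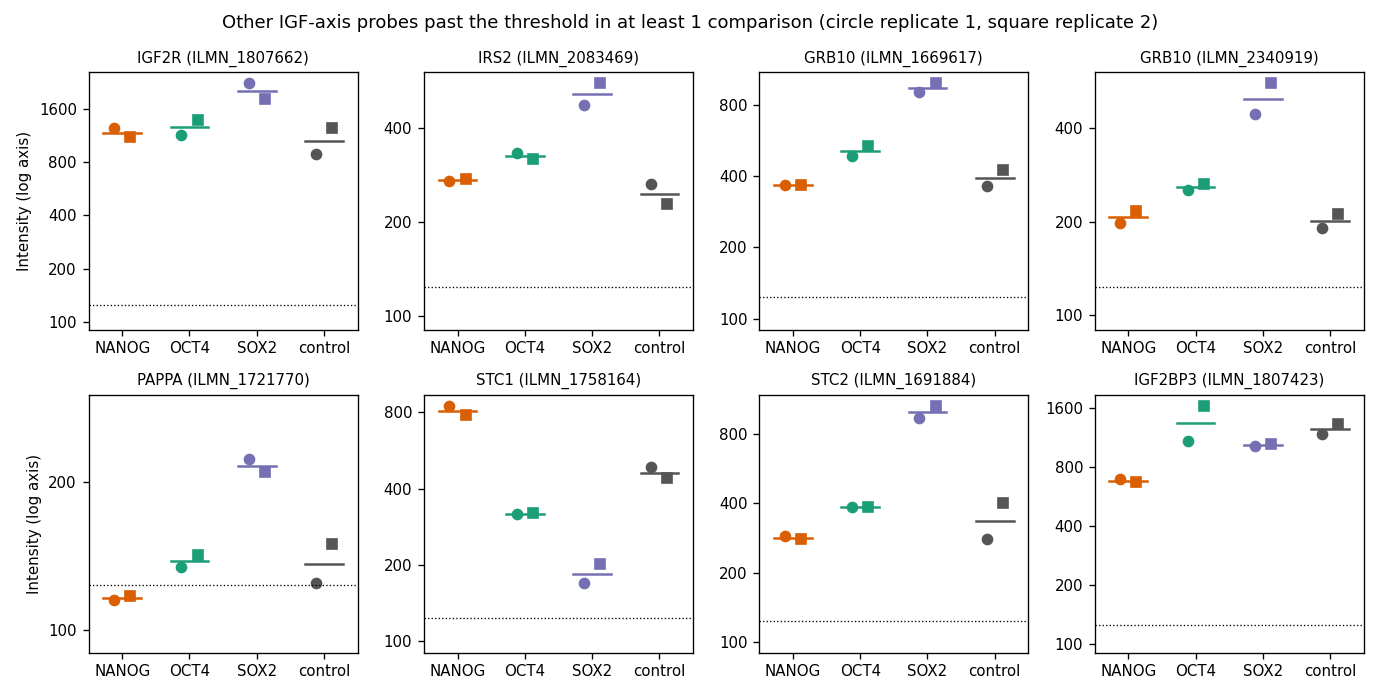
Deposited intensity (log axis) on each array of the other IGF-axis and IGF2 mRNA-binding probes that passed in at least 1 of the 6 comparisons. Circles are replicate 1, squares replicate 2, lines the geometric mean of each group and the dotted line the filter intensity of 123.7. STC2, IRS2, PAPPA and the 2 GRB10 probes shown are highest on the SOX2 arrays, whereas STC1 is highest on the NANOG arrays and lowest on the SOX2 arrays.

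Downstream of the receptors, the substrate gene IRS2 (ILMN_2083469) read 271 and 274 with NANOG, 333 and 319 with OCT4, 474 and 561 with SOX2, and 264 and 228 in control. Both SOX2 arrays were the brightest, and IRS2 rose with SOX2 against control (log2 change 1.22, SE 0.13, adjusted p = 0.00234, and 0.0538 with the 2 groups alone in the fit). GRB10, an adaptor that restrains the insulin and IGF1 receptors, read 365 and 368 with NANOG, 483 and 534 with OCT4, 899.5 and 985 with SOX2, and 362 and 422 in control by ILMN_1669617. It rose with SOX2 against control by ILMN_1669617 (log2 change 1.37, adjusted p = 0.00113) and ILMN_2340919 (1.52, adjusted p = 0.00140), while a further GRB10 probe, ILMN_1652662, was at -0.06 (adjusted p = 0.903). The receptor gene IGF2R, which clears IGF2, read 1244 and 1116 with NANOG, 1145 and 1395 with OCT4, 2235 and 1827 with SOX2, and 885 and 1253 in control. IGF2R rose with SOX2 against control (log2 change 0.97, SE 0.20, adjusted p = 0.0233), and this call ended without control replicate 1 (0.146) or either NANOG array (0.0614), with array weights (0.0566) and with the 2 groups alone (0.137). The protease gene HTRA1 and the inhibitor gene TIMP1 did not pass against control in any group, with log2 changes from -0.29 to 0.46 and from -0.08 to 0.02.

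IGF2 mRNA-binding proteins share the family's initials but bind RNA inside the cell. Of the 3, IGF2BP3 (ILMN_1807423) read 689.5 and 672 with NANOG, 1087 and 1633 with OCT4, 1023 and 1051 with SOX2, and 1183 and 1321 in control. The NANOG arrays were the lowest, and IGF2BP3 fell by 0.92 on the log2 scale with NANOG against control (SE 0.18, adjusted p = 0.0432). This call ended without any 1 of the NANOG or control arrays (adjusted p from 0.103 to 0.353), with no background correction (0.0519), with an offset of 16 (0.0594) and with the filter on all 8 arrays (0.0561). IGF2BP1 and IGF2BP2 did not pass in any of the 6 comparisons. Among 13 genes whose products share the IGFBP domain or were once numbered with the family, 7 were tested and 0 passed against control in any group. Of all tested probes, 2.32% passed with NANOG, 0.174% with OCT4 and 8.01% with SOX2. In SOX2 against control CCN1 was at 1.18 (95% interval 0.28 to 2.08, adjusted p = 0.114). The 2 probes of CCN2 were at 0.94 (0.24 to 1.64, adjusted p = 0.104) and 0.89 (0.31 to 1.47, adjusted p = 0.0706). CCN1 and CCN2, matricellular proteins, were lower with NANOG than with SOX2. CCN1 read 481 and 493 with NANOG and 1664 and 2123 with SOX2 (log2 change -2.05, SE 0.39, adjusted p = 0.0116), against 526 and 1402 in control, where the arrays lay far apart. CCN2 was at -1.49 (adjusted p = 0.0152) and -1.14 (adjusted p = 0.0212) by its 2 probes. The CCN1 and CCN2 calls ended without NANOG replicate 1 or NANOG replicate 2 (adjusted p from 0.0834 to 0.163).

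For each tested gene the 3 genes of most similar profile were listed by Pearson correlation of log2 intensity over the 8 arrays, among 9223 probes with a range of at least 0.5 log2. With so few arrays and so many probes, high values arise readily, and no test is attached. IGFBP3 was most like TGFBI (0.982), HOXD1 (0.981) and OSCP1 (0.974). IGFBP5 was most like PLLP (0.986), DLX5 (0.985) and SERTAD4 (0.985). For IGFBP2 the list was ENO3 (0.986), DIP2B (0.976) and SH2D4A (0.969), and for IGFBP7 it was GUK1 (0.955), SLC10A3 (0.945) and ZFP3 (0.943). IGFBP4 was nearest to RFC4 (0.981), DPH5 (0.978) and MRPS27 (0.959), and IGFBP6 to RNF145 (0.983), FXYD6 (0.982) and ENTREP3 (0.980). Probes of the binding proteins were left out of the candidates, so none could be listed. None of the listed genes is a member of the IGF axis list.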

How the data were processed

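RNA of 8 samples was hybridised to 1 Illumina array each. The values used were the authors' deposited intensity values for 47323 probes, from 86.3 to 22884, with a median of 117.1 on every array. Sorted values differed by at most 2.3 between arrays, so the deposited values were already quantile normalized. No source used here names the tool. A second table has 16 columns whose names match no sample, and they were not used in any step. Detection p-values were among them, so the filter was an intensity above 123.7, the 60th percentile over all probes and arrays, on 2 or more arrays.

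Values were background corrected (normexp, offset 50) and log2 transformed, and fitted per probe in limma 3.58.1 under R 4.3.3, with 1 mean per group, 4 residual and 4.34 prior degrees of freedom, two-sided tests and Benjamini-Hochberg adjustment over 21828 probes. Probes were not collapsed to genes. The offset understates the changes of dim probes. No fold is given against a group with both arrays under the filter. Probe symbols came from the platform annotation: 30113 probes had 1 symbol, 8 several and 17202 none, and 30074 matched a RefSeq table of GRCh38.p14. No source used here gives probe positions. The number of arrays, 2 per group, limits the precision.

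The members and lists were chosen with earlier results of these data known. All IGFBP probes are named. IGF-axis and related genes are named where they passed, up to 6 a comparison, and other genes where their profile was among the 3 most alike. The fit was tested on simulated data. Alternatives changed the background correction, offset, normalization, filter, prior, array weights, groups in the fit, replicate block and arrays kept.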

Additional observations from a re-analysis of the deposited data

How the results depend on the processing

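Alternatives that kept a probe numbered 18 for ILMN_1746085 and ILMN_1750324, 17 for ILMN_2396875 and 16 for ILMN_2132982, which the 8-array filter and the choice of 1 probe per gene left out. Called changes of IGFBP3 and IGFBP5 kept their direction under those. In SOX2 against control and in OCT4 against SOX2 the calls of both IGFBP3 probes and of ILMN_1750324 held under each, as did the calls of both IGFBP5 probes in NANOG against SOX2. Array weights gave 7 called IGFBP probes in NANOG against control (7.47% of all tested probes) and 7 in NANOG against OCT4 (14.4%). They gave 8 with any difference among groups. For any difference, no share over all probes is given here under the alternatives, so those counts have nothing to be set against. With only the 2 groups compared in the fit, NANOG called 7 against control (7.67%) and 7 against OCT4 (15.7%). With 1 probe per gene the counts were 2 in SOX2 against control (11.1%), 1 in NANOG against OCT4 (7.16%), 2 in OCT4 against SOX2 (6.9%) and 2 for any difference, since fewer probes were tested. A filter on all 8 arrays left 1 in NANOG against SOX2 (15.3%). With 1 array left out, the counts ran from 0 to 6 in NANOG against control, 0 to 1 in OCT4 against control, 3 to 5 in SOX2 against control, 0 to 7 in NANOG against OCT4, 2 to 3 in NANOG against SOX2, 3 to 5 in OCT4 against SOX2 and 3 to 8 for any difference. Except where fewer probes were tested, the cause was not tested.

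Called directions did not reverse. Among changes not called, these crossed 0 with 1 array left out. IGFBP2 ranged from -0.046 to 0.89 in NANOG against control and from -0.69 to 0.25 in SOX2 against control, at 0.14 without SOX2 replicate 1. In OCT4 against control IGFBP3 ranged from -0.10 to 0.24 by ILMN_1746085, at -0.04 without control replicate 2, and from -0.22 to 0.11 by ILMN_2396875. IGFBP4 ranged from -0.43 to 0.33 in NANOG against SOX2. IGFBP6 ranged from -0.19 to 0.43 in OCT4 against control, at -0.15 without control replicate 1, from -0.33 to 0.21 in SOX2 against control and from -0.12 to 0.50 in OCT4 against SOX2. IGFBP7 ranged from -0.71 to 0.091 in OCT4 against SOX2.

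The deviations of same-numbered replicates correlated at -0.19 to 0.35 between groups, with the highest value between OCT4 and control. The signs were mixed over the 6 pairs of groups, so the numbers were not taken as pairs. With the replicate number as a block the counts were 2 in NANOG against control (2.06% of all tested probes), 0 in OCT4 against control (0.11%) and 4 in SOX2 against control (6.46%). Between factors they were 2 in NANOG against OCT4 (4.37%), 2 in NANOG against SOX2 (12.8%) and 4 in OCT4 against SOX2 (4.17%), with 4 for any difference. Over all probes, the 506 calls of NANOG against control became 1630 with array weights, 1674 with the 2 groups alone, 260 with the filter on all 8 arrays and 67 to 1520 with 1 array left out. The 1749 calls of SOX2 against control became 793, 189, 1489 and 347 to 5444. The 38 calls of OCT4 against control became 115, 50, 14 and 1 to 195, and 24 with the block. NANOG against OCT4, with 1118, became 3143, 3419, 722 and 149 to 2544, NANOG against SOX2, with 2939, became 2258, 1748, 2235 and 700 to 6161, and OCT4 against SOX2, with 1036, became 562, 157, 767 and 245 to 5071. Probes near the filter intensity, such as IGFBP1 and the second IGFBP5 probe with NANOG, limit what can be seen of low levels.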
